A study of Homo sapiens with 6 samples.

Results

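The plasminogen activators PLAT and PLAU, the urokinase receptor PLAUR, the anticoagulant receptors THBD and PROCR, and the inhibitors SERPINE2, SERPINB2 and TFPI were followed in K562 cells. K562 is a human erythroleukaemia line established from a chronic myeloid leukaemia. The 8 genes were chosen by function, with earlier results of these arrays known, and every probe set that the platform annotation pairs with 1 of them was taken. The choice was made with the differences between all-trans retinoic acid (ATRA) and DMSO in view, and for PLAT also with the siRNA difference in view. Differences of these genes under ATRA are therefore given as a description with no test. The annotation held 17 such probe sets for 7 of the genes, out of 54613 probe sets and 19775 genes in all. SERPINB2 had no listed probe set and was not analysed here.

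The cells were nucleofected with an siRNA that the labels name only RNAi8, or with a scrambled RNA (scrRNA), each at up to 200 nM. After 24 hours they received ATRA or its solvent DMSO, and the ATRA concentration is written as 10e-7 mol/l in the labels. The title of the series names PRAME, a tumour antigen known to repress signalling by retinoic acid receptors. The 6 arrays come from 3 independent experiments, and each of these paired an siRNA array with a scrambled RNA array. ATRA with siRNA had 2 arrays and ATRA with scrambled RNA had 2 arrays, from experiments 1 and 3, while DMSO with siRNA and DMSO with scrambled RNA had 1 array each, from experiment 2. All 6 arrays thus hold transfected cells of 1 line, and no array holds untransfected cells. Because DMSO was used in experiment 2 alone, treatment and experiment cannot be told apart.

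Tissue-type plasminogen activator (PLAT) and urokinase (PLAU) are proteases that cleave plasminogen to plasmin, the enzyme that dissolves fibrin. Serpins such as SERPINE2 and SERPINB2 trap these proteases in inactive complexes, and PLAUR holds urokinase at the cell surface. On endothelium, thrombomodulin (THBD) turns thrombin into an activator of protein C, the endothelial protein C receptor (PROCR) presents protein C to that complex, and TFPI blocks the tissue factor pathway that starts coagulation. Retinoic acid is known to raise tissue-type plasminogen activator and thrombomodulin in cultured endothelial cells.

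Of the 8 genes, 6 had a window around a transcription start among those searched from the RefSeq promoter table for GRCh38.p14, with 8 windows between them. PLAT and THBD had none among the windows searched for these genes. The percentages of windows given below count all 35116 windows of the table. Windows of the 8 genes were not looked for in every one of them. The absence of PLAT here therefore does not show that the table lacks it. The letters of PROCR and TFPI are shown because these were the genes whose signal was lower on all 4 ATRA arrays, beside the retinoic acid response element of CYP26A1, the retinoic acid hydroxylase used here as the check of ATRA. Each is read 5′ to 3′ on the strand of its gene, and the 250 bases before the start are given. Capitals mark matches to the GC box GGGCGG or the nuclear receptor half-site AGGTCA on either strand, and in CYP26A1 they mark the 2 half-sites of the element. The PROCR stretch lies at chr20:35171822-35172071 on the plus strand, the TFPI stretch at chr2:187554436-187554685 on the minus strand, and the CYP26A1 element at chr10:93073803-93073819 beside a gene on the plus strand.
PROCR promoter: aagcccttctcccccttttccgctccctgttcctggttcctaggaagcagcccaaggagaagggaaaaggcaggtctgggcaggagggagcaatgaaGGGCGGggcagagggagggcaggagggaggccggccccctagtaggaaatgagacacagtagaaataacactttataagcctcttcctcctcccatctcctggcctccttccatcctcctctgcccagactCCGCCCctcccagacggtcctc
TFPI promoter: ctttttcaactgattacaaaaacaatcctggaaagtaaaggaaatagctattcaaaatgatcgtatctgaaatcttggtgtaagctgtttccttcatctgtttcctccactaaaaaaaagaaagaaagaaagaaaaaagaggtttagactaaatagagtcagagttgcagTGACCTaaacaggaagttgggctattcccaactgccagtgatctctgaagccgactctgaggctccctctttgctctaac
CYP26A1 element: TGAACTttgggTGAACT
PROCR held 2 GC boxes, which 45.0% of the 35116 windows of 300 bases searched hold at least once. It also held 1 TATAAA match on the opposite strand, a motif that 11.5% of windows hold. TFPI held 1 half-site, TGACCT as read on the strand of the gene, starting 80 bases before the transcription start, and 13.8% of windows hold that half-site. A direct repeat of half-sites spaced by 5 bases (DR5), as printed for CYP26A1, stood in 31 of the windows searched, or 0.0883%. For that search a half-site began with A or G, had G next and G or T after it, and ended in TCA. None of the 8 windows, which cover 6 of the genes and neither PLAT nor THBD, held such a repeat with a spacing of 1, 2 or 5 bases. That says only that these letters are not in these windows.

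Values are log2 expression after RMA, and a difference of 1 is a change by a factor of 2 in signal. Array medians lay between 5.96 and 6.02. A signal below the median of all probe sets, 5.99, was not shown to be above background and is called dim here. A gene was represented by its brightest probe set unless another is named, and levels were not compared between probe sets. CYP26A1 read 11.46 and 12.21 on the ATRA arrays with siRNA and 11.21 and 11.85 on those with scrambled RNA, against 5.75 and 5.72 under DMSO. PRAME was lower with siRNA than with scrambled RNA in each experiment, with log2 differences of -0.88, -0.60 and -0.85 in experiments 1, 3 and 2. Experiment 3 stood apart from the others. Its actin 3′ probe set exceeded the 5′ one by 2.98 and 3.36, against 0.63 to 0.92 on the other arrays, and its arrays correlated with the others across probe sets at 0.979 to 0.982, against 0.997 or more among experiments 1 and 2. Of all genes, 14.6% differed by at least 0.5 between experiments 3 and 2, and 0.541% between experiments 1 and 2. Values are therefore given for experiments 1 and 3 apart, and the part of RNA quality in them was not tested.

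PLAT, the activator that acts mainly on fibrin, was the gene of the set with the largest difference. Its only probe set read 8.46 and 8.24 on the ATRA arrays with siRNA and 8.002 and 7.81 on the ATRA arrays with scrambled RNA. On the DMSO arrays it read 6.70 with siRNA and 6.60 with scrambled RNA. All 4 ATRA arrays lay above both DMSO arrays, with more than 1 log2 unit between the lowest ATRA and the highest DMSO value. The experiment means were 8.13 ± 0.14 under ATRA (SD, n = 2 experiments) and 6.65 under DMSO (1 experiment). The ATRA signal was 3.00 times the DMSO signal in experiment 1 and 2.60 times in experiment 3. The mean difference of 1.48 was the 5th highest of 19775 genes, 4th in experiment 1 and 53rd in experiment 3. On scrambled arrays alone the difference was 1.41 and 1.22 in experiments 1 and 3, so it was present without the siRNA. In bulk RNA, more cells expressing a gene and more RNA per cell cannot be told apart.

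**Figure D1:**
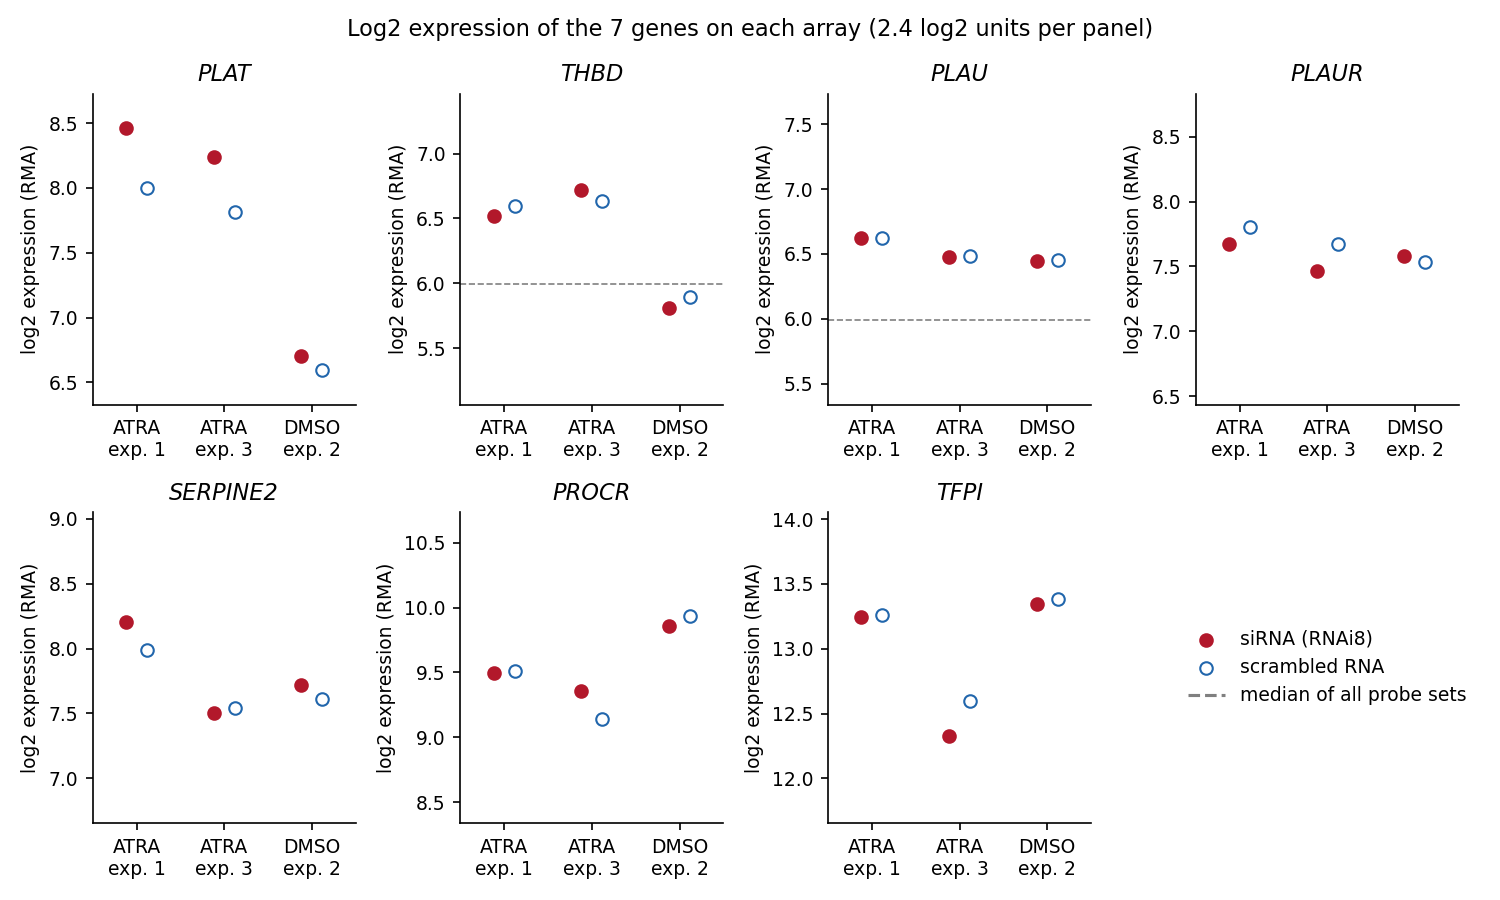
Log2 expression of each of the 7 measured genes on all 6 arrays, 1 panel a gene, with ATRA experiments 1 and 3 left of DMSO experiment 2. Filled points are siRNA arrays, open points scrambled RNA arrays, and each panel spans the same number of log2 units. PLAT and THBD lie higher on the 4 ATRA arrays, and PROCR lies lower.

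PLAU, which encodes urokinase, the activator that works mostly at cell surfaces, showed far smaller differences. Its brighter probe set read 6.62 and 6.47 with siRNA and 6.63 and 6.48 with scrambled RNA under ATRA, against 6.45 on both DMSO arrays. The 4 ATRA arrays lay above the DMSO arrays, but by 0.03 in experiment 3 against 0.17 in experiment 1. The other PLAU probe set overlapped between treatments, with differences of 0.00 and -0.16 in experiments 1 and 3. The 2 probe sets thus had opposite signs in their means, 0.10 and -0.08.

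PLAUR, the receptor that binds urokinase, had 3 probe sets and overlapped between treatments on each. The brightest read 7.67 and 7.47 with siRNA and 7.80 and 7.67 with scrambled RNA under ATRA, against 7.58 and 7.53 under DMSO. Mean ATRA minus DMSO differences of the 3 probe sets were 0.10, -0.09 and -0.07. They were above 0 in experiment 1 for all 3 probe sets and below 0 in experiment 3 for the dimmer pair, at -0.28 and -0.16.

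SERPINE2, also called protease nexin-1, inhibits thrombin, urokinase and tissue-type plasminogen activator. Its brighter probe set read 8.21 and 7.50 with siRNA and 7.99 and 7.54 with scrambled RNA under ATRA, against 7.72 and 7.61 under DMSO. Both arrays of experiment 1 lay above the DMSO arrays and both of experiment 3 lay below them. The ATRA minus DMSO difference was 0.43 in experiment 1 and -0.14 in experiment 3, so the mean of 0.14 has no single direction behind it. Its other probe set was dim on all arrays.

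THBD, the thrombin receptor that starts protein C activation, was higher under ATRA in both experiments. Its brightest probe set read 6.52 and 6.72 with siRNA and 6.60 and 6.64 with scrambled RNA under ATRA, against the dim values of 5.81 and 5.89 under DMSO. The ATRA arrays did not overlap the DMSO arrays. The experiment means were 6.62 ± 0.09 under ATRA (SD, n = 2) and 5.85 under DMSO, a ratio of 1.63 in experiment 1 and 1.78 in experiment 3. Because the DMSO signal was dim, these ratios are of signal, and the RNA may differ by another factor. The next THBD probe set had the same direction on all 4 ATRA arrays with smaller differences of 0.38 and 0.25, also against dim DMSO values. The remaining one was dim throughout, at 4.74 to 4.92, and overlapped. Averaged over the 3 probe sets the difference was 0.38.

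PROCR, the receptor that hands protein C to thrombomodulin, was lower under ATRA in both experiments. The only PROCR probe set read 9.49 and 9.36 with siRNA and 9.51 and 9.14 with scrambled RNA under ATRA, against 9.86 and 9.93 under DMSO. All 4 ATRA arrays lay below both DMSO arrays. The experiment means were 9.38 ± 0.18 under ATRA (SD, n = 2) and 9.90 under DMSO, so that the ATRA signal averaged 69.7% of the DMSO signal. The difference was -0.39 in experiment 1, the 38th lowest of all genes there, and -0.65 in experiment 3, the 530th lowest there. THBD and PROCR, which act on the same substrate, thus stood on opposite sides of their DMSO values.

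TFPI, the inhibitor of factor Xa and of the tissue factor complex, had a difference that rested mostly on experiment 3. The brightest of its 5 probe sets read 13.25 and 12.33 with siRNA and 13.26 and 12.60 with scrambled RNA under ATRA, against 13.35 and 13.38 under DMSO. All 4 ATRA arrays lay below, by 0.11 in experiment 1 and by 0.90 in experiment 3 (log2 differences -0.11 and -0.90). The mean of -0.51 corresponds to 70.4% of the DMSO signal, and with the 5 probe sets averaged the mean was -0.19. The 5 TFPI probe sets differed from each other in experiment 3. There the next brightest gave -0.51, while the one after it in brightness was higher than under DMSO by 0.53, and the dimmest pair gave -0.21 and -0.47. In experiment 1 all 5 lay between -0.12 and 0.03. The span between TFPI probe sets was 0.154 in experiment 1 and 1.43 in experiment 3. Across the 2484 genes with at least 3 bright probe sets the median span was 0.150 in experiment 1 and 0.755 in experiment 3, and 19.4% of them had a span in experiment 3 as wide as that of TFPI or wider. The actin 3′ to 5′ gap given above is widest on the same arrays.

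**Figure D2:**
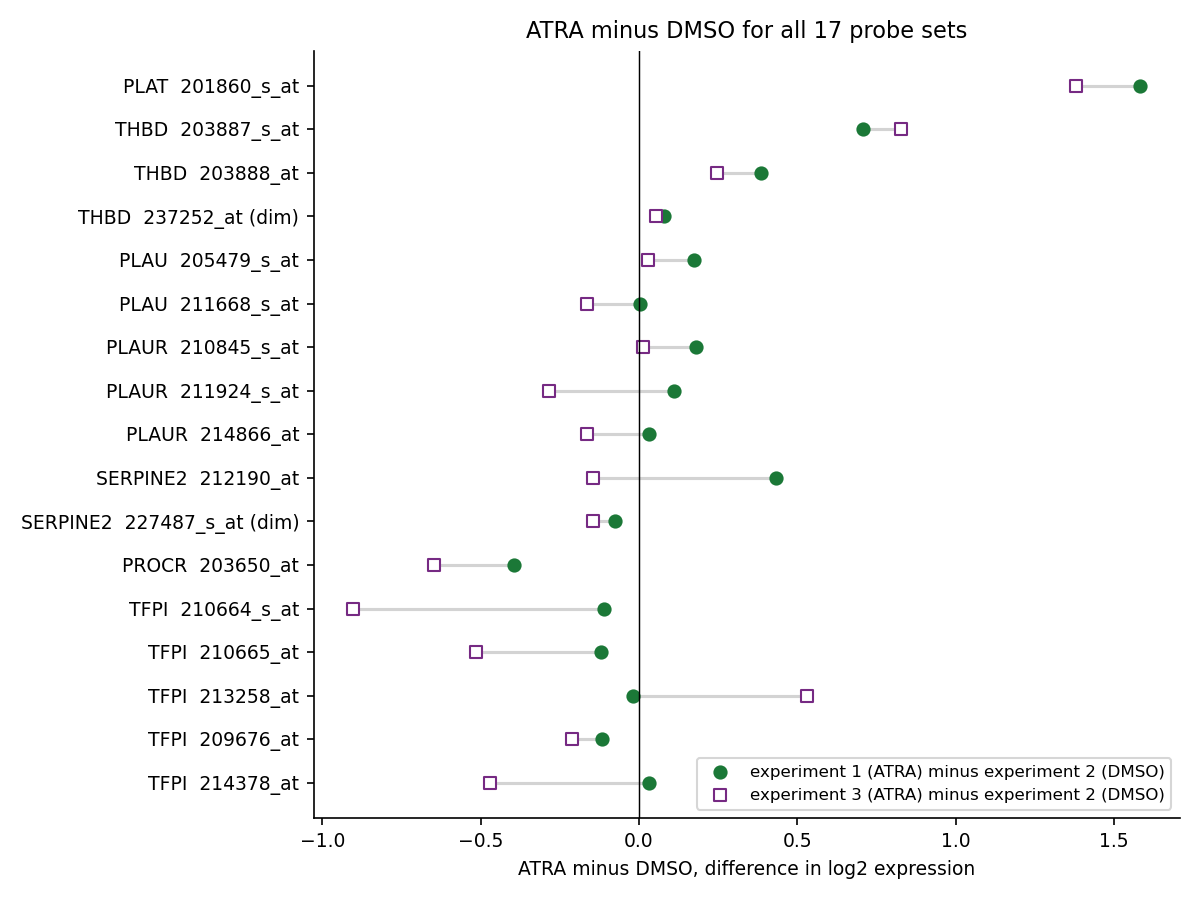
ATRA minus DMSO difference in log2 expression for each of the 17 probe sets, as experiment 1 minus experiment 2 (filled circles) and experiment 3 minus experiment 2 (open squares), with siRNA and scrambled arrays averaged. Grey lines join the 2 values of a probe set, and the probe sets of a gene run from bright to dim down the page. The values lie close together for PLAT and THBD and up to 0.79 apart for TFPI.

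Counted over genes, 3 of 7 had all 4 ATRA arrays above both DMSO arrays (PLAT, THBD and PLAU), against 13.5% of all genes, and 2 of 7 had all 4 below (PROCR and TFPI), against 13.2%. With a mean difference of at least 0.5 as well, PLAT and THBD remained above (2.23% of all genes) and PROCR and TFPI below (0.673%). Of the probe sets, 4 of 17 lay above (11.1% of all probe sets) and 5 of 17 below (11.8%). These counts come from the contrast that was in view when the genes were chosen, and nothing is read from them. The median difference of the 7 genes was 0.10, and that of all genes was -0.01. Limma on the experiment means, 2 against 1, put 0 of 19775 genes past an adjusted p of 0.05 (0%), with 235 genes at an unadjusted p under 0.05. The smallest adjusted p over all genes was 0.995, so with a single DMSO experiment even CYP26A1, at a difference of 5.94, did not pass, and a count of 0 in this comparison says nothing about a gene.

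The siRNA contrast asks whether lowering PRAME moved these genes. PLAT was higher with siRNA than with scrambled RNA in 3 of 3 experiments, by 0.46 in experiment 1, 0.43 in experiment 3 and 0.11 in experiment 2. The mean difference was 0.33 ± 0.19 (SD, n = 3 experiments), a ratio of 1.26, and is a description, since PLAT was picked with this difference in view. Both siRNA arrays under ATRA held the highest PLAT values of the series. TFPI was lower with siRNA in all 3 experiments, by 0.02, 0.27 and 0.03 in experiments 1, 3 and 2, and PLAU by 0.01 or less in each. Other probe sets of both genes went the other way in all 3 experiments: the dimmer PLAU probe set was higher with siRNA by 0.14 on average, and 1 TFPI probe set by 0.07. With probe sets averaged, the siRNA difference was 0.07 for PLAU and -0.02 for TFPI. THBD, PLAUR, SERPINE2 and PROCR had mixed signs. Thus 1 of 7 genes was higher in all 3 experiments, against 13.1% of all genes, and 2 of 7 were lower on the probe set with the highest mean, against 11.9%.

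**Figure D3:**
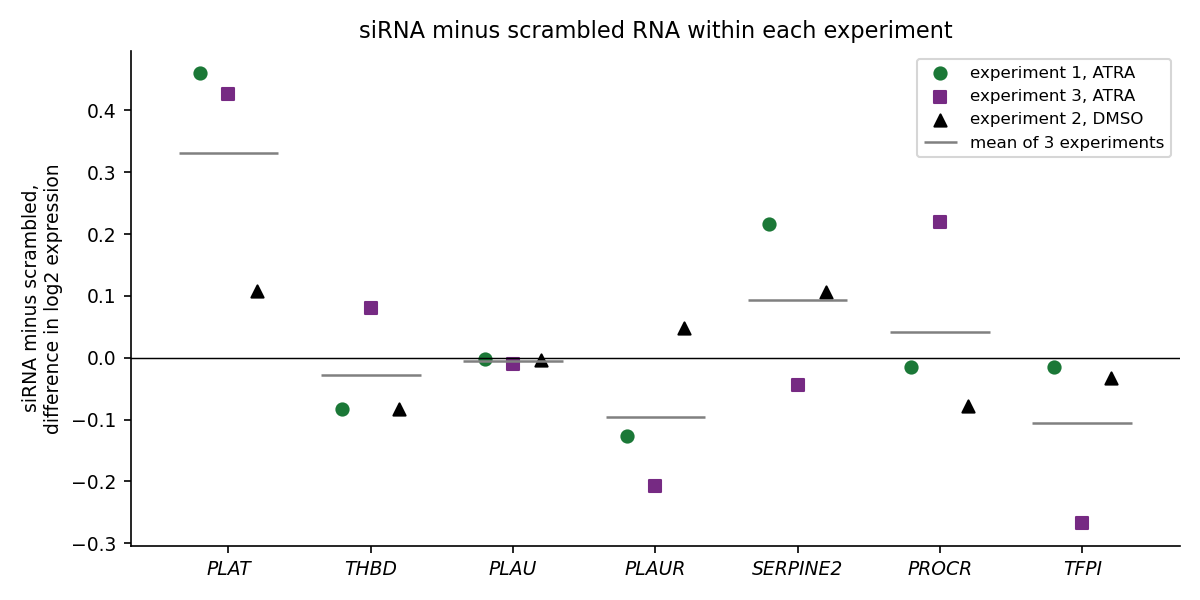
siRNA minus scrambled RNA difference in log2 expression within each experiment for the 7 genes, with ATRA experiments 1 and 3 and DMSO experiment 2 as separate symbols and grey bars at the mean of 3. PLAT lies above 0 in each experiment, at 0.46 and 0.43 under ATRA and 0.11 under DMSO.

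In limma over all genes with treatment as a covariate, 0 of the 7 genes passed an adjusted p of 0.05, nor did any of the 19775 (0%), with 255 genes at an unadjusted p under 0.05. With the experiment as a block, 5 of all genes passed (0.0253%) and 0 of the 7. Among the 6 genes other than PLAT the smallest adjusted p with the block was 0.788, for TFPI, whose difference was -0.11 with a 95% interval of -0.23 to 0.01. For THBD that interval was -0.18 to 0.12 around -0.03, for PLAU -0.15 to 0.14 around -0.01, and for PROCR -0.10 to 0.18 around 0.04. For SERPINE2 it was -0.05 to 0.24 around 0.09, and for PLAUR -0.24 to 0.05 around -0.10.

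Whether the siRNA difference depended on ATRA was tested as a difference of differences. For PLAT the siRNA difference was larger under ATRA than under DMSO by 0.34 (95% interval -0.38 to 1.05), with a limma adjusted p of 1. With the experiment as a block the interval was 0.04 to 0.63 and the limma adjusted p was 0.998. PLAT was picked with its siRNA values in view, so these values support nothing beyond the description. For PLAUR the siRNA difference was -0.13 and -0.21 in the ATRA experiments and 0.05 in the DMSO experiment, a difference of -0.21 (95% interval -0.87 to 0.44, limma adjusted p 1). No gene of the 7 and none of all genes passed in limma (0%), with 262 of all genes at an unadjusted p under 0.05. With 1 array in each DMSO group, that fit takes the spread from the ATRA groups. On the other PLAUR probe sets the difference of differences was -0.01 and 0.10.

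The other genes of the plasmin and clotting pathways were taken from 4 lists that hold none of the 8 genes, and 58 of 63 listed genes were measured. By limma, 0 of 58 passed the adjusted threshold for ATRA against DMSO, a comparison in which no gene passed, with 1 higher and 1 lower at an unadjusted p under 0.05. For siRNA against scrambled RNA limma also put 0 of 58 past it, with 2 higher and 2 lower at an unadjusted p under 0.05, or 4 and 2 with the block. For ATRA the median difference of the 58 was -0.02, 7 of 58 lay above on all 4 ATRA arrays (13.5% of all genes did) and 14 of 58 below (13.2% of all genes). A difference of at least 0.5 with no overlap was seen in 0 of 58 genes above (2.23% of all genes) and 1 of 58 below (0.673%), SERPINF1.

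Of the plasmin system, 9 of 18 genes had a higher mean under ATRA and 9 a lower one (median -0.03). S100A10, which with annexin A2 forms a plasminogen receptor at the cell surface, gave -0.17 in experiment 1 and -0.68 in experiment 3. PLGRKT, another plasminogen receptor, gave 0.07 and -0.42. SERPINI1, neuroserpin, an inhibitor of tissue-type plasminogen activator, gave 0.08 and 0.47, and its siRNA difference averaged 0.13, with -0.03 in the DMSO experiment. MMP9, a gelatinase of the matrix, had a siRNA difference of -0.09. The signs of PLGRKT thus opposed each other between experiments, and for all 3 of these genes measured under ATRA the larger value was in experiment 3.

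Of the anticoagulant genes, 5 of 12 were higher in mean and 7 lower (median -0.04). VKORC1, the vitamin K reductase that warfarin blocks, gave -0.15 and -0.56 in experiments 1 and 3. ANXA5, a phospholipid-binding annexin, gave -0.13 and -0.50, and both genes lay below on all 4 ATRA arrays. PROS1, protein S, the cofactor of activated protein C and of TFPI, gave 0.04 and 0.53. By siRNA, TFPI2, a relative of TFPI that inhibits plasmin, differed by 0.22 and was higher in 3 of 3 experiments, while its other, dim probe set had mixed signs. GGCX, the vitamin K-dependent carboxylase, averaged -0.09 but gave 0.06, -0.31 and -0.02 in experiments 1, 3 and 2, so that value rests on experiment 3, and its other 4 probe sets averaged from -0.15 to 0.08.

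Of the clotting factors and receptors, 8 of 19 were higher in mean and 11 lower (median -0.03), and 11 of the 19 were dim. F2R, the thrombin receptor PAR1, read 8.11 and 8.29 with siRNA and 8.09 and 8.28 with scrambled RNA under ATRA, against 7.79 and 7.76 under DMSO. Its difference was 0.32 in experiment 1 and 0.51 in experiment 3, above on all 4 ATRA arrays, while its other probe set gave 0.07. LMAN1, a cargo receptor for factors V and VIII, gave 0.12 and 0.47. Its other probe sets overlapped between treatments, with 0.03 and -0.002 on the brighter and 0.04 and 0.04 on the dim one. F11, factor XI, gave -0.14 and -0.38. The siRNA difference of LMAN1 was 0.07, above 0 in 3 of 3 experiments. That of F2, prothrombin, averaged -0.05 but was -0.29, 0.06 and 0.09 in experiments 1, 3 and 2, so its sign rests on experiment 1. F3, tissue factor, the trigger that TFPI inhibits, was dim on all 6 arrays, at 5.52 to 5.88.

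Of the other serpins, 5 of 9 were higher in mean and 4 lower (median 0.06). SERPINF1, pigment epithelium-derived factor, gave -0.29 in experiment 1 and -0.93 in experiment 3. SERPINB9, an inhibitor of granzyme B, gave 0.35 and 0.51, but its next probe set had values under ATRA on both sides of DMSO. SERPINB1, an inhibitor of neutrophil proteases, gave 0.49 and -0.24 on its brightest probe set. On 2 others it was higher on all 4 ATRA arrays, at 0.48 and 0.71 on the first of them and 0.43 and 0.46 on the next, and on its dimmest it gave 0.04 and -0.22. The siRNA difference of SERPINH1, the collagen chaperone HSP47, was 0.15 and that of SERPINF1 was 0.09.

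**Figure D4:**
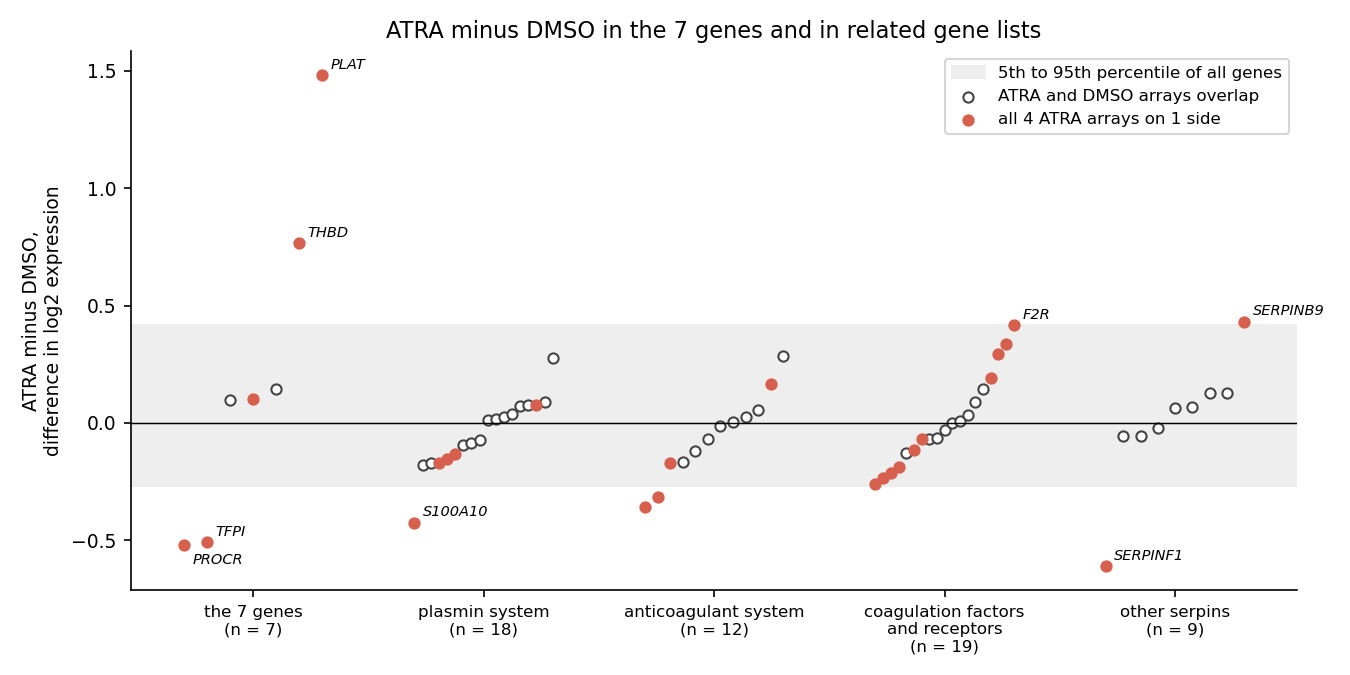
Mean ATRA minus DMSO difference in log2 expression for the 7 genes and for the genes of 4 related lists, 1 point a gene, sorted within each list. Filled points had all 4 ATRA arrays on 1 side of both DMSO arrays, and the grey band spans the 5th to 95th percentile of all genes. PLAT at 1.48, THBD at 0.77 and SERPINB9 at 0.43 lie above the band, and PROCR at -0.52, TFPI at -0.51, SERPINF1 at -0.61, S100A10 at -0.43, VKORC1 at -0.36 and ANXA5 at -0.32 lie below it.

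Over the 6 arrays, the genes with a profile closest to that of PLAT were ARAP3, PPP1R3B, NMU, DHRS3 and CCL26, by the root mean square difference between centred profiles (0.214 to 0.339 log2 units). DHRS3, a retinaldehyde reductase and known retinoic acid target, had an ATRA minus DMSO difference of 1.07 in experiment 1 and 1.40 in experiment 3. The mean siRNA difference, 0.33 for PLAT, was -0.01 for ARAP3, the closest. For PPP1R3B, NMU, DHRS3 and CCL26 it was 0.23, 0.05, 0.01 and 0.21. For THBD the closest were SCD, TMEM135, MBNL2, IRF2BP2 and HOXB3 (0.0517 to 0.0803). For PROCR they were CHST11, NOSTRIN, CFAP210, POLD2 and STAP1 (0.0582 to 0.0788). For TFPI they were CYBA, TRAPPC3, POLR2J, MARK2 and BCL2L12 (0.029 to 0.0349). These are descriptions over 6 arrays that share 3 experiments.

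**Figure D5:**
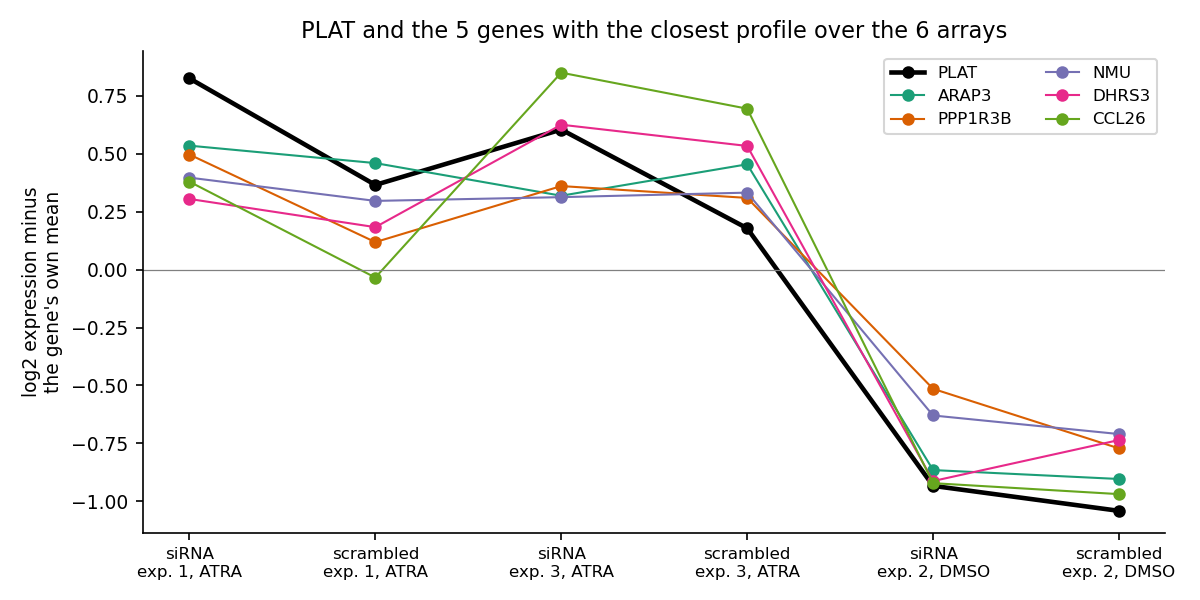
Log2 expression minus each gene's own mean on the 6 arrays, for PLAT (thick black line) and the 5 genes with the smallest root mean square difference from it. All 6 genes lie lower on both DMSO arrays, and lines only join the points of a gene.

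Cell type markers were read beside these genes. All 11 measured genes of K562 erythroid identity were above the median of all probe sets, with a median level of 9.03. Of 10 endothelial markers 5 were dim, among them CDH5 (4.65), KDR (4.14) and TIE1 (4.98). The rest were above the median of all probe sets: PECAM1 (6.85), ESAM (6.54), CLDN5 (6.29), VWF (6.16) and ROBO4 (6.11). The summed signal of the list was at most 592 on ATRA arrays and at least 604 on DMSO arrays. With 5 of 10 genes dim, that sum holds signal not shown to be above background, and its relation to PLAT and THBD was not tested. Of 10 monocyte and macrophage markers 7 were dim, CD14 (5.18) and MNDA (3.80) among them, and the sum was 1248 to 1395 on ATRA arrays and 1212 to 1246 on DMSO arrays. That sum is carried mostly by LYZ, whose difference was 0.18, while 8 of the 10 markers were lower in mean under ATRA (median -0.12), with CD14, FCN1 and ITGAM below on all 4 ATRA arrays. The part of such cells in the results was not tested. Megakaryocyte markers (4 of 9 dim) summed to 682 to 737 under ATRA and 713 to 722 under DMSO, fibroblast markers (6 of 10 dim) to 798 to 824 and 831 to 861, and epithelial markers (3 of 10 dim) to 9804 to 11002 and 10230 to 10679.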

How the data were processed

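Per the labels' protocols, total RNA of K562 cells was amplified with a kit that primes at the 3′ end. The arrays were Affymetrix HG-U133 Plus 2.0. The deposited values are log2 expression that the authors normalized by RMA with the BRB-ArrayTools package, as the design text says. For its version, nothing was given in the sources used here.

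Of 54675 probe sets, 62 controls were left out, and only the 41091 with 1 gene in the platform annotation named a gene. Each of 19775 genes took its probe set with the highest mean. Limma 3.58.1 in R 4.3.3 (lmFit, eBayes with trend) was run over all genes with Benjamini-Hochberg adjusted p-values, after it was tested on simulated data. The siRNA fit had treatment as a covariate, ATRA was tested on experiment means, and a fit of 4 groups gave the difference of siRNA effects. P-values measure the spread between these experiments only, and precision is limited by 6 arrays.

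The experiment numbers pair the arrays, as the labels mark independent experiments. Across genes, arrays of 1 experiment deviated together from their group means (correlations of 0.679, 0.795 and 0.883). Unmatched arrays of experiments 1 and 2 gave 0.402 and 0.534, and those of experiment 3 with the others gave -0.796 to -0.627. Arrays of 1 experiment also share the treatment, so the pairing rests on the labels. The members and lists were chosen with earlier results of these data known. The text names the members, the checks CYP26A1, DHRS3, RARB and PRAME, up to 3 genes of each list by ATRA difference and 2 by siRNA difference among bright genes, and the 5 closest profiles for members that differed by 0.5 or more without overlap. F3 and the markers with values were named after their values were seen. RARB was dim, with an ATRA minus DMSO difference of -0.07. Alternatives were other probe set rules, a filter on dim genes, other scaling, blocks, and leaving out arrays or experiments.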

Additional observations from a re-analysis of the deposited data

Results flagged for a closer look

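On its brightest probe set, the siRNA difference of PLAUR, the urokinase receptor, had opposite signs under the 2 treatments. It was below 0 in both ATRA experiments and above 0 in the DMSO experiment. The difference of differences was -0.21 on the log2 scale, and by limma its adjusted p was 1, or 0.998 with the experiment as a block, so it did not pass. The DMSO side is a single pair of arrays. The other PLAUR probe sets had mixed signs across the 3 experiments, and their differences of differences were -0.01 and 0.10. With the probe sets averaged the value was -0.04.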

How the results depend on the processing

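For siRNA against scrambled RNA, 0 genes passed by limma, against 5 with the replicate block (the paired fit). Without experiment 2 the count was 0 in the unblocked fit and 1 in the paired fit. Without experiment 1 it was 1, and without experiment 3 it was 2. In those cases the unblocked and paired fits are the same fit, because treatment then marks the experiment. For ATRA against DMSO, 0 genes passed on experiment means, against 4 with all 6 arrays and no block and 2 with the experiment as a random block. Leaving out 1 ATRA experiment gave 132 to 6777 genes, 6777 without experiment 1 and 132 without experiment 3, because the spread then came from arrays within an experiment. Experiment 2 could not be left out of the ATRA comparison or of the difference of siRNA effects, since it is the only DMSO experiment. Of 12 alternatives for ATRA, 2 turned the sign of PLAUR and 1 that of SERPINE2. For PLAT, THBD, PROCR and TFPI the arrays do not overlap between treatments, so leaving out arrays could not turn theirs. The ATRA difference of THBD was 0.38 with its probe sets averaged, and that of TFPI was -0.19 with them averaged, -0.11 without experiment 3 and -0.90 without experiment 1. For PLAT it was 1.65 on siRNA arrays alone and 1.31 on scrambled arrays alone. The block changed no call among the 7 genes or the 58 listed ones. Dim signals limit THBD under DMSO.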
